A study of Aspergillus nidulans with 8 samples.

Results

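The genes described here are those whose transcript level in Aspergillus nidulans was at least 1.5 higher on the log2 scale (2.83-fold) in colonies of day 10 than in colonies of day 4 on each of 3 agar media. They were chosen by that threshold from the authors' deposited log2 values, and 31 of 11127 genes (0.279%) met it. For comparison, 131 genes (1.18%) were lower by as much in all 3 media. Because the day 4 and day 10 arrays chose the genes, their day 10 minus day 4 differences, called day 10 differences from here on, are given as a description and were not tested.

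The samples were whole colonies of this filamentous fungus, stab-inoculated on solid agar, kept in darkness at 32 deg C, and scraped off for total RNA. The media are labelled CYAs, YES and CYA, names that the labels do not spell out (YES is written YESs in its sample titles and is taken as 1 medium). Colonies on CYAs and on CYA were taken at day 4, day 8 and day 10, giving 3 arrays per medium, whereas YES has 2 arrays, from day 4 and day 10. That makes 8 one-colour arrays with 1 array per medium and day, and no label names a genotype, a strain or a replicated culture.

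As background, a colony on agar ages from its centre outwards. Older hyphae use up the medium, and part of the mycelium breaks down its own walls and proteins with secreted hydrolases, a process called autolysis. In darkness this species also turns to sexual development, in which fruiting bodies form inside nests of thick-walled nursing cells, the Hülle cells. Whole-colony RNA mixes all of these cells, so a larger share of one cell type and more RNA per cell cannot be told apart.

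Several facts of the arrays touch the values below. Levels are the authors' log2 signals, whose array medians lay between 9.66 and 9.69. The 8 arrays shared 2 slides. On slide 1 were YES and the earlier CYA colonies (days 4 and 8), and on slide 2 CYAs and the day 10 colony of CYA, so the day 10 differences of CYAs and YES lie within a slide and that of CYA does not. The CYAs day 8 array stood apart. Where CYA day 8 exceeded CYAs days 4 and 10 at least 16-fold, in 163 genes, the signal on CYAs day 8 was a nearly fixed fraction of that on CYA day 8, with a median of 0.218 and quartiles of 0.203 and 0.233. Of the 31 genes, 3 (AN9042, AN7349 and AN8466) were themselves among these 163. A fraction up to 0.233 was found for 5 of the 31 and a larger one for the other 26 (median over all 31, 0.299). A larger fraction does not clear a gene, because signal of its own on CYAs would add to the fixed fraction. Whether the day 8 values of these 26 genes were affected was not tested, and no such count is given for all genes. Counts from CYAs that need day 8 cannot be had without this array, and beside them stand those from CYA.

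All 31 genes were measured above background. Each had 3 probes, at least 2 of which were well above background on every array, and for 30 genes all 3 probes were. Most genes were detected: 10878 to 11114 of all 11127 had at least 1 such probe on a given array. Some day 4 levels were low, such as 6.51 for AN10011 on CYAs, where the lowest gene of the array stood at 5.81. Its day 10 difference on CYAs was 3.86 in the deposited table and 6.04 as a mean over probes (processed scanner signal). The SD of a gene's day 10 difference over its 3 probes had a median of 0.18, which is a spread between probes and not between cultures. In 25 genes it was at most 0.5 in every medium. It exceeded 1 in AN9042, AN9235, AN2676, AN2781 and AN8654.

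The median level over the 31 genes was 8.10 on CYAs day 4, 9.44 on YES day 4 and 10.22 on CYA day 4. On day 10 it was 11.40 on CYAs, 12.02 on YES and 13.38 on CYA, and on day 8 it was 11.20 on CYAs and 12.87 on CYA. CYA thus had the highest median on each day, and CYAs the lowest. The median day 10 difference was 2.63 on CYAs, 2.73 on YES and 2.66 on CYA, against 0.0009, -0.04 and 0.08 over all genes. The smallest of a gene's day 10 differences lay on CYAs for 11 genes, on YES for 10 and on CYA for 10, so no single medium set the threshold.

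**Figure D1:**
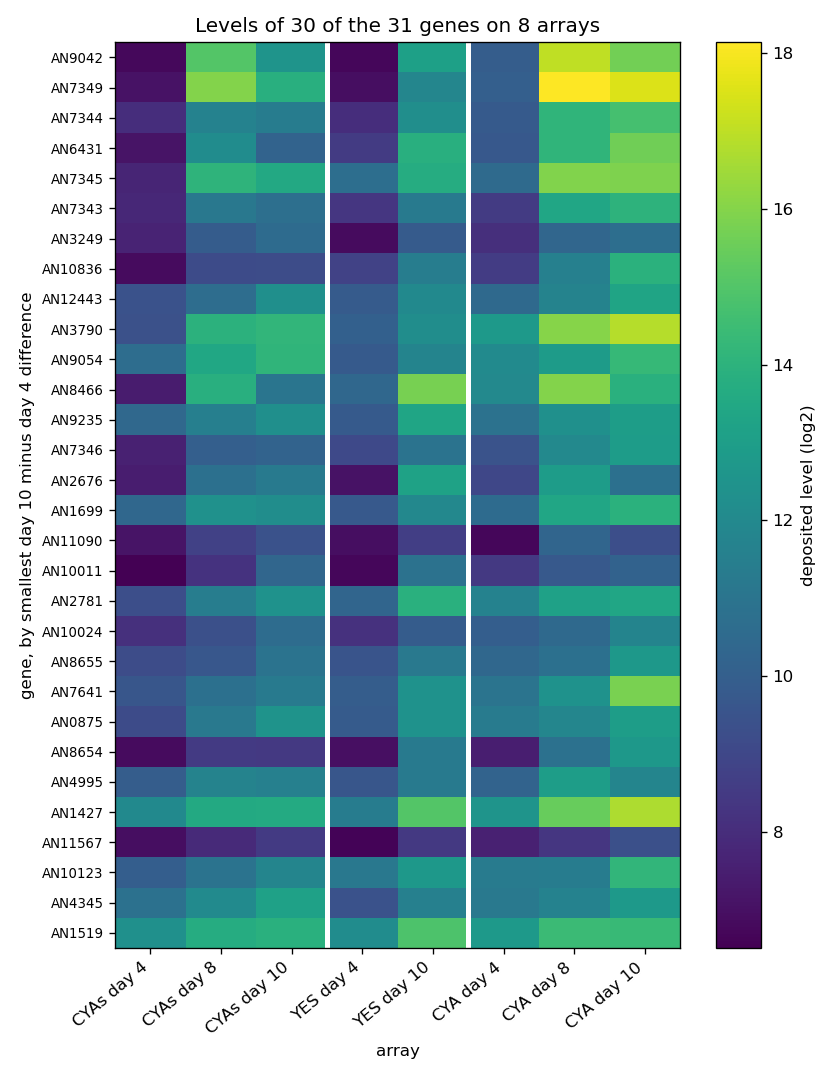
Deposited level (log2, colour) of 30 of the 31 genes (rows, ordered by their smallest day 10 difference) on the 8 arrays (columns, grouped by medium). AN7349 runs from 6.93 on YES day 4 to 18.14 on CYA day 8.

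The reference annotation lists 30 of the 31 genes (AN12443 was not matched) and gives a symbol to 0 of them, against 779 of the 10413 matched genes of the table. Among 20 lists of known genes by function, AN7349 was found on a list of 4. It is entered as mutA on a list of fruiting body and Hülle cell markers, where it stands for an alpha-1,3-glucanase that digests a storage glucan of the cell wall. This name comes from the list and not from the reference annotation, and the other genes are given by identifier without a role.

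AN9042 and AN7349 had the largest of the smallest day 10 differences. AN7349 stood at 7.08, 15.997 and 13.86 on CYAs days 4, 8 and 10, at 6.93 and 11.86 on YES days 4 and 10, and at 10.01, 18.14 and 17.53 on CYA days 4, 8 and 10. Its day 10 differences were 6.78 on CYAs, 4.93 on YES and 7.51 on CYA. Every day 4 array lay below every later array, and day 8 lay above day 10 on both media that had it. On CYAs day 8 the signal was 0.26 of that on CYA day 8.

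AN9042 stood at 6.78, 15.03 and 12.54 on CYAs, at 6.73 and 13.12 on YES and at 9.95, 17.04 and 15.67 on CYA, days in the same order. Its day 10 differences were 5.76, 6.39 and 5.72. It shared with AN7349 a day 4 level on CYA about 3 above that on the other media (3.17 above CYAs and 3.22 above YES for AN9042, 2.94 and 3.08 for AN7349). Its 3 probes gave 4.91, 7.35 and 7.95 on CYAs and 5.25, 5.86 and 5.97 on CYA (processed scanner signal), all above the threshold but unequal in size.

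A run of 4 neighbouring genes on chromosome IV, AN7343 to AN7346, belonged to the set and AN7349 lay beyond AN7346 with 2 genes between. AN7345 stood at 7.70, 14.09 and 13.51 on CYAs, at 10.69 and 13.73 on YES and at 10.54, 15.94 and 15.90 on CYA. AN7344 stood at 8.04, 11.68 and 11.40 on CYAs, at 8.01 and 12.24 on YES and at 9.82, 14.10 and 14.71 on CYA. In both genes the day 8 levels already lay near those of day 10. On CYAs this rests on the day 8 array with the reservation given above. There the signal was 0.298 (AN7345) and 0.185 (AN7344) of that on CYA day 8.

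AN7343 stood at 7.82, 11.18 and 10.78 on CYAs, at 8.34 and 11.31 on YES and at 8.53, 13.40 and 14.05 on CYA. AN7346 stood at 7.57, 10.04 and 10.20 on CYAs, at 9.05 and 10.92 on YES and at 9.50, 11.96 and 12.94 on CYA. All 4 genes of the run and AN7349 were lower on CYAs than on CYA on each shared day. The largest day 10 difference lay on CYA for AN7343, AN7344, AN7346 and AN7349 and on CYAs for AN7345 (5.81).

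The genes around the run had smaller differences. The 2 genes between AN7349 and the run, AN7348 and AN7347, had day 10 differences of 0.79, 0.70 and 0.56 and of -0.31, -0.67 and 0.16 on CYAs, YES and CYA. On the far side of AN7349, AN7350 gave -0.36, -0.15 and 0.36. Beyond AN7343, AN7342 gave 0.49, 0.24 and 1.70. The run was bounded on both sides by genes below the threshold in at least 2 of the 3 media.

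**Figure D2:**
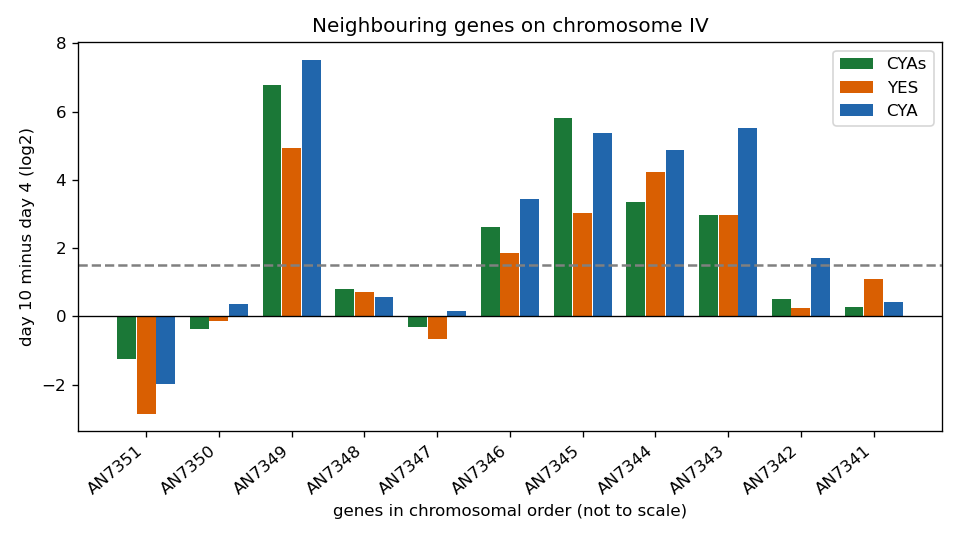
Day 10 minus day 4 difference (log2, 1 array each) on CYAs, YES and CYA for the genes in chromosomal order around AN7343 to AN7349 on chromosome IV, with the threshold of 1.5 dashed. The 4 genes of the run and AN7349 stand above the threshold in all 3 media, and AN7347, AN7348 and AN7350 below it.

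A second neighbouring pair, AN8655 and AN8654, lies on chromosome III. AN8654 stood at 6.84, 8.50 and 8.45 on CYAs, at 6.99 and 11.26 on YES and at 7.50, 10.86 and 12.73 on CYA, so its day 10 difference on CYAs (1.61) was far below those on YES (4.28) and CYA (5.23). AN8655 stood at 9.23, 9.67 and 10.94 on CYAs, at 9.52 and 11.22 on YES and at 10.38, 10.80 and 12.73 on CYA. The next gene, AN8656, had day 10 differences of 5.64 on YES and 8.64 on CYA but 0.37 on CYAs and was no member. AN8657 beyond it gave 2.85 and 3.67 on YES and CYA and 1.24 on CYAs. On the other side of the pair, AN8653 gave -1.30, 1.72 and 0.31 on CYAs, YES and CYA. AN8652 beyond it gave 1.57, 1.10 and 0.03.

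These 6 genes of the run and the pair were the only ones next to another gene of the set. AN9054 and AN9042 on chromosome VII had 11 genes between them, and apart from AN7349 and the run every other distance between members on a chromosome was 19 genes or more. Of 50 genes next to a member and not members themselves, 22 (44%) were higher on day 10 in all 3 media by any amount, against 22.2% of all genes. Chromosome IV, with 986 of the 10413 matched genes, held 7 of the 30 placed genes, among them AN7349 and the run. Chromosome VII, with 1559, held 6, and each of the others held 1 to 5.

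Another group of genes had its largest difference on CYA. AN6431 stood at 7.14, 12.18 and 10.23 on CYAs, at 8.53 and 13.83 on YES and at 9.73, 14.12 and 15.64 on CYA. AN10836 stood at 6.85, 9.18 and 9.23 on CYAs, at 8.80 and 11.42 on YES and at 8.57, 11.58 and 13.95 on CYA. AN7641 stood at 9.62, 10.82 and 11.30 on CYAs, at 9.93 and 12.43 on YES and at 10.99, 12.46 and 15.79 on CYA. In these genes CYA day 10 was the highest of all 8 arrays.

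On day 10, CYA lay above CYAs by 5.41 in AN6431, by 4.72 in AN10836 and by 4.49 in AN7641, both arrays on slide 2. AN1427, another gene with its largest difference on CYA, stood at 12.04, 13.58 and 13.63 on CYAs, at 11.39 and 15.01 on YES and at 12.54, 15.46 and 16.68 on CYA. Its 3 probes agreed closely (SD 0.09 on CYAs, 0.09 on YES and 0.08 on CYA).

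Other genes had their largest difference on YES, 11 in all. AN8466 stood at 7.40, 13.84 and 11.03 on CYAs, at 10.38 and 15.75 on YES and at 12.00, 15.99 and 13.89 on CYA. AN2676 stood at 7.46, 10.79 and 11.24 on CYAs, at 7.08 and 13.23 on YES and at 8.98, 12.93 and 10.82 on CYA. On CYA day 10 both genes were at least 2.10 below CYA day 8, so the day 10 difference on CYA (1.89 and 1.84) was smaller than the difference reached by day 8 (3.99 and 3.95).

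The probes of AN2676 disagreed. They gave 0.99, 4.64 and 6.16 on CYAs, 1.86, 6.74 and 9.22 on YES and 1.16, 1.78 and 2.93 on CYA (processed scanner signal), so 1 probe lay under the threshold on CYAs and CYA. In AN9235, 1 probe gave 8.27 on YES where the others gave 3.01 and 3.39. In AN2781, 1 probe gave 0.95 on CYAs and 0.25 on CYA where the others gave at least 3.39 and 1.70. The deposited values of these genes are not plain means over these probes. In AN9235 the mean over the probes was 4.89 on YES, against 3.56 in the deposited table. In AN2781 it was 1.24 on CYA, under the threshold, against 1.73 in the deposited table.

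AN10011 stood at 6.51, 8.19 and 10.37 on CYAs, at 6.71 and 10.88 on YES and at 8.42, 9.74 and 10.16 on CYA. In AN10011 the day 10 levels of the 3 media lay within 0.72 of each other, while the day 4 levels were 1.71 to 1.91 higher on CYA than on the others.

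AN3790 and AN9054 had a larger difference on CYAs than on the other media. AN3790 stood at 9.38, 13.97 and 14.16 on CYAs, at 10.08 and 12.23 on YES and at 12.75, 16.01 and 16.85 on CYA. AN9054 stood at 10.66, 13.43 and 14.13 on CYAs, at 9.78 and 11.74 on YES and at 12.06, 12.87 and 14.28 on CYA. In AN9054 the CYAs and CYA levels of day 10 differed by 0.14, and YES lay 2.54 below CYA.

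Even differences across media were found in AN4995, with 1.63 on CYAs, 1.64 on YES and 1.59 on CYA, and in AN11567, with 1.58, 1.82 and 1.80. AN3249 gave 2.90, 3.01 and 2.66 and AN12443 gave 2.84, 2.19 and 2.84. In the remaining genes, AN9235, AN1699, AN11090, AN2781, AN10024, AN0875, AN10123, AN4345 and AN1519, the day 10 differences ran from 1.54 to 3.59. Just inside the threshold by their smallest difference lay AN1519 (1.54), AN4345 (1.54) and AN10123 (1.56), and just outside AN2895 (1.50 after rounding, 1.497 on CYAs), AN2663 (1.48 on CYA) and AN6923 (1.47 on CYA).

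**Figure D3:**
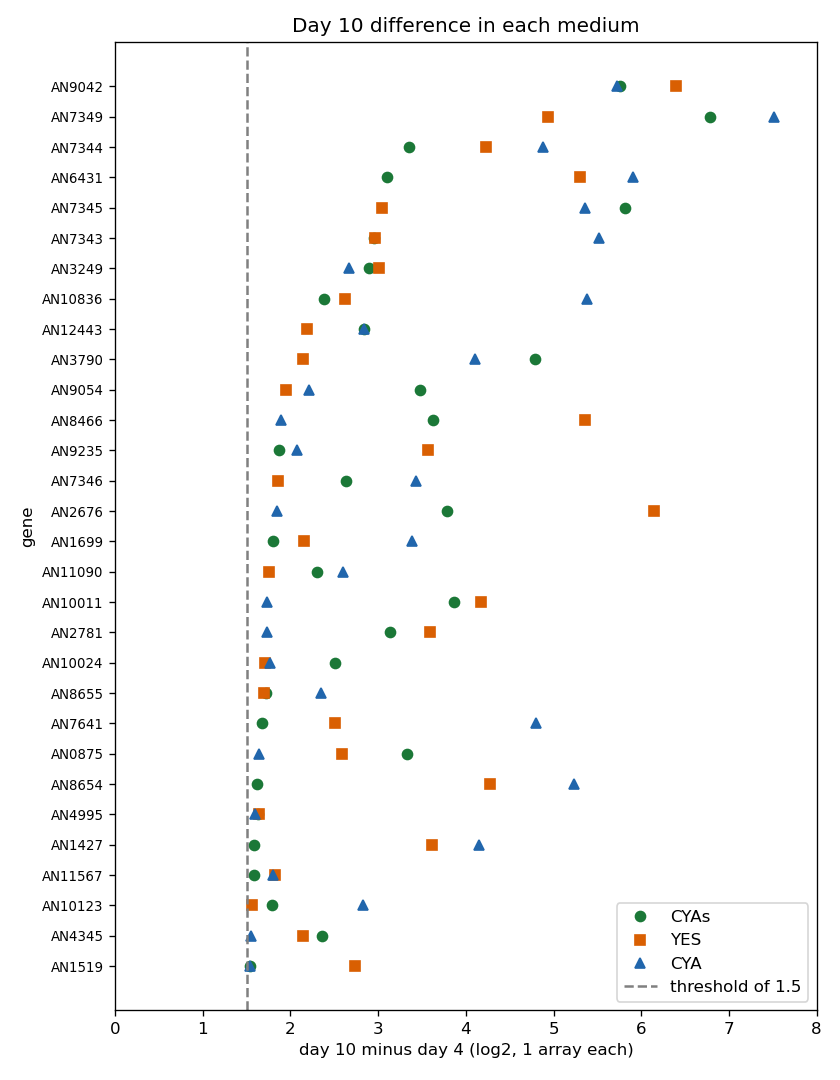
Day 10 minus day 4 difference (log2, 1 array each) of 30 of the 31 genes on CYAs, YES and CYA, with the threshold of 1.5 dashed. AN7349 reaches 7.51 on CYA, while AN4995 lies between 1.59 and 1.64 in all 3 media.

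The day 8 arrays were not used to choose the genes, and they show how the genes differed in timing. On CYA all 31 genes were higher on day 8 than on day 4, against 48.1% of all genes, and the day 8 minus day 4 differences had a median of 2.68 (range 0.08 to 8.12). They share the day 4 array with the choice of the genes and were not tested. A difference of 1.5 or more by day 8 was found for 20 of the 31 genes on CYA (8.6% of all genes). On CYAs all 31 were again higher on day 8 than on day 4 (39% of all genes) and 21 by 1.5 or more (3.29%), with the reservation given above for that array.

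Not all of the genes were ordered by age. On CYA 22 genes were ordered day 4, day 8, day 10 from low to high (16.2% of all genes), and on CYAs 21 (22%), of which 17 were so ordered on both media (5.64%). The choice of the genes already put day 10 above day 4 on both media. Only the place of day 8 was free, and the shares of all genes carry no such condition. On CYA 4 genes were higher by 1 or more on day 8 than on day 10 (12.1% of all genes), namely AN9042, AN8466, AN2676 and AN4995. On CYAs there were also 4 (6.18%), AN9042, AN7349, AN6431 and AN8466. Their CYAs day 8 signals were 0.275, 0.264, 0.248 and 0.243 of those on CYA day 8. These fractions lie little above the upper quartile of 0.233 given for that array, so the same reservation holds for these 4 genes. AN9042, AN7349 and AN8466 are themselves among the 163 genes that gave this quartile.

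Later genes formed a smaller group. On CYA, 3 genes stood less than 0.5 above day 4 on day 8 (75.5% of all genes met that limit, counting those lower than on day 4), and most of their day 10 difference lay between days 8 and 10. On CYAs 1 gene, AN8655, met that limit (87.2%). AN10123 stood at 11.33, 11.41 and 14.16 on CYA days 4, 8 and 10, AN8655 at 10.38, 10.80 and 12.73, and AN4345 at 11.20, 11.67 and 12.74. A further difference of 1 or more from day 8 to day 10 was found for 13 of the 31 genes on CYA (12.4% of all genes) and for 7 on CYAs (3.9%). These differences share the day 10 arrays with the choice of the genes and were not tested. CYA day 10 lay on the other slide than CYA days 4 and 8, and the part of the slide in these values cannot be told apart from that of the day.

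**Figure D4:**
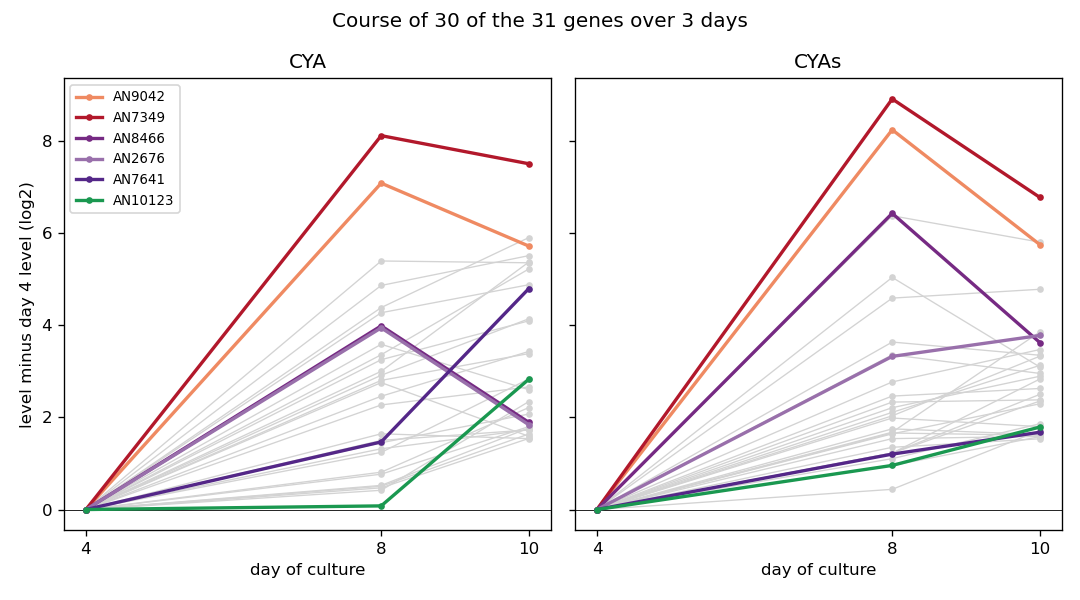
Level minus the day 4 level (log2) of 30 of the 31 genes on CYA and CYAs against the day of culture, with 6 genes coloured. On CYA, AN7349 reaches 8.12 on day 8 and 7.51 on day 10, AN8466 and AN2676 are lower on day 10 than on day 8, and AN10123 lies at 0.08 on day 8.

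The levels were also set against each other between media on the same day. The choice of the genes used the day 4 and day 10 arrays of all media, though not differences between media, so those days are a description and only the day 8 arrays lie outside the choice. On days 4 and 8 the CYA and CYAs arrays lay on different slides. On day 4, 30 of the 31 genes were higher on CYA than on CYAs (42.8% of all genes), with a median difference of 1.37 (range -0.41 to 4.59). On day 8, 29 were higher on CYA (56.4%), with a median of 1.64 (range -0.56 to 2.42), and on day 10, within slide 2, 27 were higher (53.6%), with a median of 1.74 (range -0.44 to 5.41). On all 3 days 26 genes were higher on CYA (17% of all genes) and 13 were so by 1 or more (0.782%), while 0 were lower by 1 or more on all 3 days (1.44%). Without the CYAs day 8 array, 27 genes were higher on CYA on days 4 and 10 (24.5%), 14 of them by 1 or more on both (1.38%).

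On day 8 alone, with both arrays outside the choice of the genes, CYA was higher by 1 or more in 22 of the 31 genes (10.5% of all genes). The largest day 8 differences were those of AN7344 (2.42), AN10836 (2.39) and AN8654 (2.36). In these genes the CYAs day 8 signal was 0.185, 0.182 and 0.175 of that on CYA day 8, all below the median fraction of 0.218 given above, and this comparison cannot be made without that array. AN9054 (-0.56) and AN4345 (-0.38) were lower on CYA, and AN3249 (0.45) came next. On day 10 CYA was higher by 1 or more in 18 genes (6.61%) and on day 4 in 19 (5.97%). On day 4 the largest difference was that of AN8466, 4.59, and the only gene lower on CYA was AN11090 (-0.41).

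**Figure D5:**
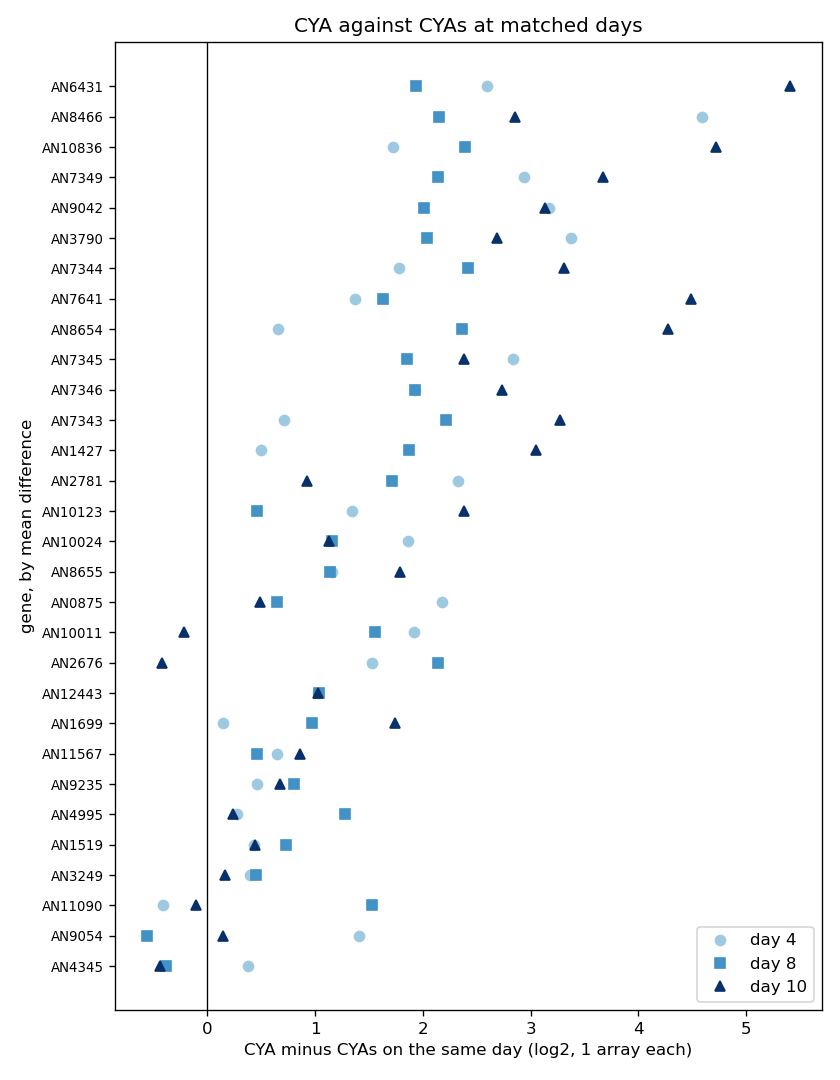
CYA minus CYAs on the same day (log2, 1 array each) for 30 of the 31 genes on days 4, 8 and 10, ordered by the mean of the 3 days. Most points lie to the right of 0, with AN4345 at 0.37, -0.38 and -0.44 near the lower end.

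YES also lay below CYA for most of the genes. On day 4, within slide 1, 28 of the 31 were higher on CYA than on YES (47.1% of all genes), with a median difference of 1.097, and 17 by 1 or more (6.48%). On day 10, across slides, 24 were higher on CYA (55.5%), with a median of 1.47, and 19 by 1 or more (12.3%). On both days 21 were higher on CYA (30.2%), 10 of them by 1 or more (2.97%). The 7 genes higher on YES on day 10 (44.5%) included AN8466, AN9235, AN2676, AN10011, AN2781 and AN1519, with AN2676 (CYA minus YES -2.40) and AN8466 (-1.86) the farthest. YES and CYAs lay on different slides on both days, so medium and slide cannot be told apart between them. Between these media the genes were divided, with 16 higher on YES on day 4 (45.5% of all genes) and 19 on day 10 (47.1%). By 1 or more, 6 were higher on YES on day 4 (5.63%), 11 on day 10 (13.8%) and 3 on both days (2.09%), while 1 was lower by as much on both (2.66%).

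Limma's fit over all 8 arrays, with medium and day as additive factors, gave a median of -1.39 over the 31 genes for CYAs minus CYA (SD over genes 0.98, 30 lower and 1 higher), of -1.02 for YES minus CYA (SD 0.97, 30 lower and 1 higher) and of 0.38 for YES minus CYAs (SD 1.11, 10 lower and 21 higher). The fit draws mainly on arrays that chose the genes, and its counts over the 31 genes are a description. Without the CYAs day 8 array the median for CYAs minus CYA was -1.499. The median for YES minus CYAs was 0.61 without CYAs day 4, 0.16 without CYAs day 10 or YES day 10, and 0.18 with slide as a random block. Over all genes the medians were -0.03, -0.02 and -0.02. None of these differences passed the test. Limma called 0 of 11127 genes (0%) at an adjusted p under 0.05 in each of the 3 comparisons, with a smallest adjusted p of 0.10, 0.37 and 0.063. At an unadjusted p under 0.05, 21 of the 31 genes were lower on CYAs than on CYA (3.53% of all genes) and 0 higher (5.5%), and 13 were lower on YES than on CYA (5.16%) and 0 higher (3.31%). For YES minus CYAs, 3 were higher (5.44%) and 3 lower (8.62%).

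The single genes with the largest fitted differences likewise missed the threshold. CYAs minus CYA was -3.31 for AN6431 (SE 0.72), -3.20 for AN8466 (SE 0.74) and -2.95 for AN10836 (SE 0.66), each at limma adjusted p = 0.36, and the 1 positive value was that of AN4345 (0.15, SE 0.22, limma adjusted p = 0.90). YES minus CYA was -4.18 for AN7349 (SE 0.67, limma adjusted p = 0.39), -3.48 for AN3790 (SE 0.66, 0.44) and -2.70 for AN9042 (SE 0.37, 0.39). YES minus CYAs was 3.59 for AN8466 (SE 0.87, limma adjusted p = 0.30), 2.15 for AN6431 (SE 0.84, 0.36), 1.93 for AN10836 (SE 0.77, 0.36) and -1.86 for AN9054 (SE 0.51, 0.30). With slide as a block the median for CYAs minus CYA was -1.70, again with 0 genes called.

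Markers of spores differed between the same media. The 8 conidium and conidiophore markers used here, genes of the asexual spores and their stalks, had a summed level between 15.70 and 16.28 (log2) on the CYAs arrays, against 10.71 to 14.25 on CYA, and it was 16.44 on YES day 4 and 11.40 on YES day 10. The median over the 8 markers differed less, with 8.89 to 9.65 on CYAs, 7.66 to 8.57 on CYA, 9.57 on YES day 4 and 8.18 on YES day 10. All 8 were well above background on every array, and none of them is among the 31 genes. The hydrophobin gene rodA, whose protein coats the spore, had day 10 differences of -7.48 on YES, -5.49 on CYA and -0.08 on CYAs, and dewA, another hydrophobin gene, -6.59, -6.25 and 0.13. The other 6 markers had smaller ones, between -1.79 and 0.95, and some were higher on day 10, such as ivoA on YES (0.95) and abaA on CYA (0.59). A further listed marker, AN8209 (entered as wA), was left out because the reference gives another symbol (pksP). It had day 10 differences of -3.02 on YES, -1.52 on CYA and -0.44 on CYAs. The part of the asexual spores and their stalks in the levels of the 31 genes was not tested.

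Other genes of the fruiting body list and of a list on autolysis met the threshold in 1 or 2 media or in none. On the fruiting body and Hülle cell list, AN7388 (entered as cpeA, a catalase-peroxidase) had day 10 differences of 2.12, 0.83 and -0.56 on CYAs, YES and CYA, catA (AN8637), a catalase, -0.44, -3.08 and 1.94, and AN5170 (entered as rosA, a regulator of sexual development) -0.86, -0.98 and -0.68. Among these 3 genes a difference of 1.5 or more was thus found for AN7388 on CYAs (3.79% of all genes), for none on YES (8.2%) and for catA on CYA (3.69%). AN7349, the other gene of the list, met it in each medium by the choice of the genes and is not counted. The summed level of the 3 genes other than AN7349 was 14.31 to 14.60 on CYAs, 11.50 to 13.01 on YES and 14.11 to 15.38 on CYA.

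Among 3 genes of the autolysis list, AN4871 (entered as chiB, a chitinase) gave 0.92, 2.96 and 2.68, AN5558 (entered as prtA, an alkaline protease) -1.26, 1.77 and 1.23, and AN0472 (entered as engA, a glucanase) 0.51, 0.34 and 1.66. A difference of 1.5 or more was found for 0 of these 3 on CYAs (3.79% of all genes), 2 on YES (8.2%) and 2 on CYA (3.69%). AN4871 stood at 14.91 on CYA day 8, above its 14.09 on day 10. Of the entries left out because the reference gives another symbol, AN7950 (bgt2) had -2.69, -2.52 and -2.50 and AN8241 (chiA1) -1.69, -2.13 and -1.17, both lower on day 10 in all 3 media, while AN7962 (mep20) had 1.35, 4.39 and 2.34.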

How the data were processed

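Single arrays of total RNA labelled with Cy3 were compared. The authors deposited 1 log2 value per gene and array. Limma and RMA appear, without a role, in the submitters' processing notes, and how these values were normalized is not stated there. The columns share a maximum of 19.22, and each correlated at 0.981 to 0.984 across genes with its array's scanner signals after normexp and quantile normalization. The deposited scanner intensity values, with flags (0 or 1) for spots well above background, saturated or outlying, were made with Agilent Feature Extraction 10.5.1.1, per the file headers. They gave detection, the spread between probes and the alternatives. No spot was saturated. A gene's probes were averaged.

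The 31 genes, the 20 lists and the lists' names were chosen with earlier results of these data known. Genes named are the largest and smallest by each measure, those near the threshold, neighbours, and list members. A list entry with another symbol in the reference (assembly ASM1142v1) was left out. Counts cover all 31 genes, but 1 of them is not reported here by itself. The reference served only for symbols and gene order.

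Limma 3.58.1 in R 4.3.3 fitted medium and day to the deposited log2 values (3 residual and 1.88 prior degrees of freedom), with Benjamini-Hochberg adjustment over 11127 genes. An interaction cannot be tested with 1 array per medium and day. The p-values measure only the residual spread of these arrays around the additive fit. That spread holds unequal courses of a gene over the media as well as noise between arrays, and these cannot be told apart. The fit and the threshold were run on simulated arrays with planted changes as a check of the code. Recovery was required only at a spread set for the simulation, not at that of these genes. This check therefore does not show how well the fit finds differences on these arrays. Alternatives were the scaling, the filter on dim probes, the slide, each array left out and the threshold. The number of arrays limits the precision.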

Additional observations from a re-analysis of the deposited data

Results flagged for a closer look

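In AN6431 the day 10 minus day 8 difference had opposite signs on the 2 media with a day 8 array, -1.95 on CYAs and 1.52 on CYA, each from single arrays, and the difference was not tested. CYA days 8 and 10 lay on different slides, and the CYAs day 8 signal of AN6431 was 0.25 of that on CYA day 8. In 8 other genes of the set the signs also differed, with less than 1 in at least 1 of the media. Over all genes, day 8 lay above day 10 in 42.7% on CYA and in 41.0% on CYAs. How many of all genes had opposite signs was not counted, so opposite signs are not given as a trait of the set.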

How the results depend on the processing

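The number of genes depended on the input. The deposited table minus each array's 75th percentile gave 32 genes, all 31 among them. With the processed scanner signal in place of the deposited table and the same percentile subtracted, 204 genes met the threshold, 29 of the 31 among them, and 104 with at least 2 probes well above background on all arrays (chosen after seeing the data). The 175 additional genes had a median day 4 level of 6.36 in the deposited table, and 75 of them had at least 2 probes well above background on all arrays. The processed signal so scaled moved the median day 10 difference of all genes to 0.26 on CYAs, -0.11 on YES and 0.13 on CYA. Normexp and quantile normalization gave 25 genes, all among the 31. It left out AN11090, AN11567, AN2781, AN8654, AN8655 and AN9235. In 23 genes every probe met the threshold. A threshold of 1.0 gave 104 genes and one of 2.0 gave 10. The counts on day 8 stayed within 1.5 times under 4 alternatives each.

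The median of CYAs minus CYA was -1.70 with slide as a block, and leaving out 1 array gave -1.499 to -1.33. Leaving out 1 array gave -1.18 to -0.88 for YES minus CYA and 0.16 to 0.61 for YES minus CYAs, the highest without CYAs day 4 and 0.16 without CYAs day 10 or YES day 10. No gene of the set was called under any of the 14 alternatives in these 3 comparisons. On the processed signal limma called 1 gene, outside the set, in YES minus CYAs. The genes could not be chosen anew without a day 4 or day 10 array. No replicate block was fitted because the labels carry no replicate numbers, and the fit matched media by day.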
